A study of Rattus norvegicus with 10 samples.

Results

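The Scratch and Snail family of zinc finger repressors comprised 5 genes, Scrt1, Scrt2, Snai1, Snai2 and Snai3, of the 23918 genes in the deposited table. They were chosen by family membership and not by their values, and they were represented by 6 of the 31715 transcripts. The cells were FACS-sorted pancreatic beta-cells of adult Sprague-Dawley rats, selected by their autofluorescence and plated on the extracellular matrix of a rat bladder cancer cell line. The siScrt1 group (5 libraries, replicates A to E) received a pool of 4 siRNAs against rat Scrt1, and the siCtrl group (5 libraries, replicates 1 to 5) a negative control. Both were delivered with Lipofectamine RNAiMAX, and RNA was taken 48 h later and sequenced. Whether the libraries of a group came from separate cultures or animals was not stated, so p-values measure the spread between these libraries, which may be technical. The comparison asked how far Scrt1 fell, and whether the level of its relatives differed after that loss.

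Scratch and Snail proteins share a set of C-terminal zinc fingers and a short N-terminal SNAG motif. The zinc fingers bind E-boxes, short DNA elements that basic helix-loop-helix activators also use. The SNAG motif brings in the histone demethylase LSD1 (Kdm1a) with CoREST and other corepressors. Scrt1 and Scrt2 are best known from neurons and neuroendocrine cells, and Snai1 and Snai2 from the repression of epithelial junction genes during epithelial-mesenchymal transition. The binding sequence of SCRT1 is shown because its centre is the E-box common to the family. The consensus in the motif table of the study, with its 9-letter core in capitals, read as follows.
SCRT1 consensus: gagCAACAGGTGgtt
The last 6 letters of that core, CAGGTG, are the E-box that Snail proteins bind.

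The libraries held 12975086 to 16452119 recovered reads in siCtrl and 11901342 to 17444034 in siScrt1. Summed markers of beta-cells ran from 103940 to 167124 CPM (recovered reads scaled to a common library total) in siCtrl and from 105820 to 152121 in siScrt1, with reads in every library for the 11 of 12 listed genes that the table holds. The remaining gene was not analysed here. Alpha-cell markers summed to 210 to 582 CPM over both groups, delta and PP cell markers to 16.6 to 82.8 CPM, and acinar markers to at most 0.848 CPM. Duct markers summed to 212 to 295 CPM and Schwann cell and neural markers to 181 to 232 CPM, with reads in every library for 5 of 6 and 5 of 8 genes and none in any library for Sox10 and Gfap. Immune markers reached 2.92 to 6.06 CPM (5 of 7 genes read in every library, Cd3e in none) and endothelial markers 1.00 to 2.33 CPM (3 of 6, Emcn in none). A set of 3 genes on AABR scaffolds held 11.9% of all reads of siCtrl replicate 1 and 13.9% of those of siScrt1 replicate A, against 3.35% to 8.26% in the other 8 libraries.

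Scrt1 was the most abundant family member in control beta-cells and lost most of its transcripts after the siRNAs. The gene (ENSRNOG00000025594, 1 transcript of 1725 bases) stood at 8.78, 6.34, 8.60, 10.2 and 6.75 TPM (a level per transcript length) in siCtrl replicates 1 to 5. After the siRNAs, replicates A to E stood at 3.40, 2.53, 2.58, 1.24 and 0.928 TPM. The groups did not overlap, and the highest siScrt1 library lay well under the lowest siCtrl library. Means were 8.13 ± 1.58 TPM in siCtrl and 2.14 ± 1.03 TPM in siScrt1 (SD, n = 5 each), a difference of -5.99 TPM with a 95% interval from -7.75 to -3.81. An exact two-sided permutation of the libraries gave p = 0.00794, the lowest value possible with 5 against 5. Permutation within the 5 same-numbered pairs gave p = 0.0625, the lowest that exact test can give. As a share of reads the mean fell by 74.6%. In the fit across all genes the log2 change was -2.06 (SE 0.308, 95% interval -2.72 to -1.39; limma, Benjamini-Hochberg adjusted p = 0.00618).

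Residual Scrt1 was uneven. Against the siCtrl library with the same number in the deposited table, the read share fell by 61.9% in replicate A, fell by 63.8% in B and fell by 69.5% in C. It fell by 87.7% in D and fell by 86.9% in E. The coefficient of variation of the read share was 18.6% in siCtrl and 45.6% in siScrt1. Counting error was smaller than this spread: the 24 reads of replicate E gave 1.57 CPM (95% Poisson interval 1.00 to 2.33) and the 66 reads of replicate A gave 5.55 CPM (4.29 to 7.06). These intervals cover counting error only. Among the 18572 genes with a read, Scrt1 lay at percentile 61.4 of the TPM levels in siCtrl and at percentile 42.7 in siScrt1. In bulk RNA, fewer cells that express a gene and less RNA per cell cannot be told apart.

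**Figure D1:**
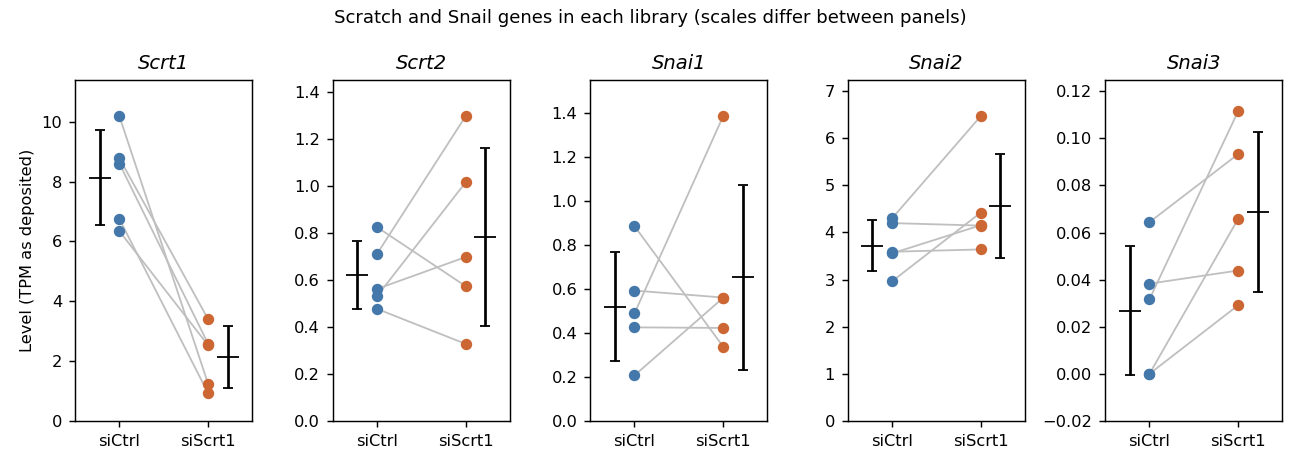
Level of each family member per library (y axis, TPM as deposited, a separate scale per gene) in siCtrl and siScrt1. Grey lines join libraries with the same number in the table, and black bars give mean and SD (n = 5). For Scrt1 the siCtrl points (6.34 to 10.2 TPM) lie apart from the siScrt1 points (0.928 to 3.40 TPM), while for each of the other 4 genes the groups overlap.

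Among all genes tested, 136 of 12941 were called at an adjusted p under 0.05 (1.05%), 88 of them lowered (0.680%) and 48 raised (0.371%). Of the family, Scrt1, Snai1 and Snai2 passed the filter on low values, and Scrt1 alone was called. It was also the sole member whose groups did not overlap in CPM, which held for 2.96% of all genes tested, 2.02% with siScrt1 lower and 0.935% with siScrt1 higher. With no filter on low values, 0.576% of the genes with reads were called, and Scrt2 and Snai3 were not among them. The fitted fall of Scrt1 ranked 10th among all genes tested, called or not. Of the called genes, 2 fell 2-fold or more, Scrt1 and Srp68 (log2 change -1.08), so Scrt1 had the largest called fall.

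Snai2 (Slug), a repressor of junction genes with roles in neural crest and stem cells, was the second most abundant member. Its gene (ENSRNOG00000047699) stood at 4.30, 3.59, 2.96, 3.55 and 4.20 TPM in siCtrl replicates 1 to 5. The values of siScrt1 A to E were 6.46, 3.64, 4.42, 4.15 and 4.14 TPM. Replicate A was the highest of all libraries and the other 4 siScrt1 libraries lay within or just above the siCtrl range. Means were 3.72 ± 0.543 and 4.56 ± 1.10 TPM (SD, n = 5 each), and the difference of 0.844 TPM (95% interval -0.151 to 2.17) did not exceed the spread of the libraries (exact permutation p = 0.143, and p = 0.230 in CPM). The log2 change was 0.27 (SE 0.157, 95% interval -0.07 to 0.61; limma adjusted p = 0.558, and 0.317 with a term for the replicate number). From 522 and 640 pooled reads the ratio of siScrt1 to siCtrl was 1.18 (95% counting interval 1.05 to 1.32). That interval lies above 1 but covers counting error only and leaves out the spread between libraries. In CPM, Snai2 was higher in siScrt1 in 3 of 5 same-numbered pairs. In TPM, only siScrt1 replicate E lay below its same-numbered siCtrl library. Replicate A, with the highest Snai2, also had the largest share of reads in the AABR scaffold genes, and without that library the log2 ratio of the mean CPM went from 0.25 to 0.11. The sum of mesenchymal markers was highest in siScrt1 replicate D (32.4 CPM) and stood at 6.13 CPM in replicate A. Within siCtrl that sum was highest in the same-numbered replicate 4 (18.7 CPM). Of the 8 listed mesenchymal genes, 1 had reads in every library. The Snai2 counts were fractions in all 10 libraries because the authors' counting shared some of its reads with other transcripts.

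Snai1, the founding Snail gene of epithelial-mesenchymal transition, was expressed at a low level. One of its 2 transcripts (ENSRNOG00000009594) had no read in any library, and the other had 18, 13, 12, 5 and 9 reads across siCtrl 1 to 5. The siScrt1 libraries A to E had 6, 15, 29, 14 and 10. Replicate C was the highest of the 10 libraries and the groups overlapped. Snai1 stood at 0.520 ± 0.249 TPM in siCtrl and 0.654 ± 0.420 TPM in siScrt1 (SD, n = 5 each; exact permutation p = 0.635). The log2 change was 0.27 with a 95% interval from -0.67 to 1.22 (limma adjusted p = 0.866). The log2 ratio of the mean CPM was 0.30, and without siScrt1 replicate C its sign turned, to -0.16. Snai1 protein is known to bind an E-box in its own promoter, and Snai1 was the family member with a RefSeq promoter window. The single E-box in the 250 bases before its start is shown with its flanks at chr3:176667325-176667348 (GRCr8, plus strand), and capitals mark the box, which lies on the other strand.
Snai1: gcccaggcgCACCTGctctgatcc

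Scrt2, the closest relative of Scrt1 and also a neuronal repressor, was barely detected. It (ENSRNOG00000005148) had 5, 6, 9, 7 and 9 reads across siCtrl 1 to 5. The siScrt1 libraries had 3, 14, 14, 9 and 7 (A to E). Replicates B and C were above every siCtrl library and replicate A below them, so the groups overlapped. The level was 0.622 ± 0.143 TPM in siCtrl and 0.783 ± 0.380 TPM in siScrt1 (SD, n = 5 each; exact permutation p = 0.452 in CPM). From 36 and 47 pooled reads the ratio of siScrt1 to siCtrl was 1.25 (95% counting interval 0.795 to 1.99). In the fit with no filter on low values the log2 change was 0.20 (95% interval -0.64 to 1.04; limma adjusted p = 0.893).

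Snai3, the least studied Snail gene, was at the edge of detection. It (ENSRNOG00000013586) had 1, 0, 1, 2 and 0 reads in siCtrl 1 to 5 against 1, 1, 3, 3 and 2 reads in siScrt1 A to E. No library exceeded 3 reads, and the 0 in siCtrl replicate 2 allowed up to 0.231 CPM (3 reads of its total, for counting error only). In CPM, Snai3 was higher in siScrt1 in 5 of 5 same-numbered pairs, although siCtrl replicate 1 and siScrt1 replicate A had 1 read each. Exact permutation within pairs gave p = 0.0625, the smallest 5 pairs can give, and the exact two-sided permutation test over libraries gave p = 0.0794. The pooled 4 and 10 reads gave a ratio of 2.40 (95% counting interval 0.693 to 10.5). A change of Snai3 was not detectable at this depth.

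The loss of Scrt1 turned the order of the family. Scrt1 was the highest member in 5 of 5 siCtrl libraries and Snai2 in 5 of 5 siScrt1 libraries, per length. Below them, Scrt2 stood above Snai1 in 3 libraries of each group and below it in the other 2, and a difference between these neighbours was not tested. Snai3 came last in all 10. Scrt1 made up 62.1% ± 6.28 of the summed family TPM in siCtrl (range 55.3% to 69.9%) and 24.9% ± 7.92 in siScrt1 (15.1% to 32.6%; SD, n = 5 each). The share of Snai2 went from 28.8% ± 4.93 to 56.4% ± 9.91. Both shares follow in large part from the fall of Scrt1 in the sum.

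**Figure D2:**
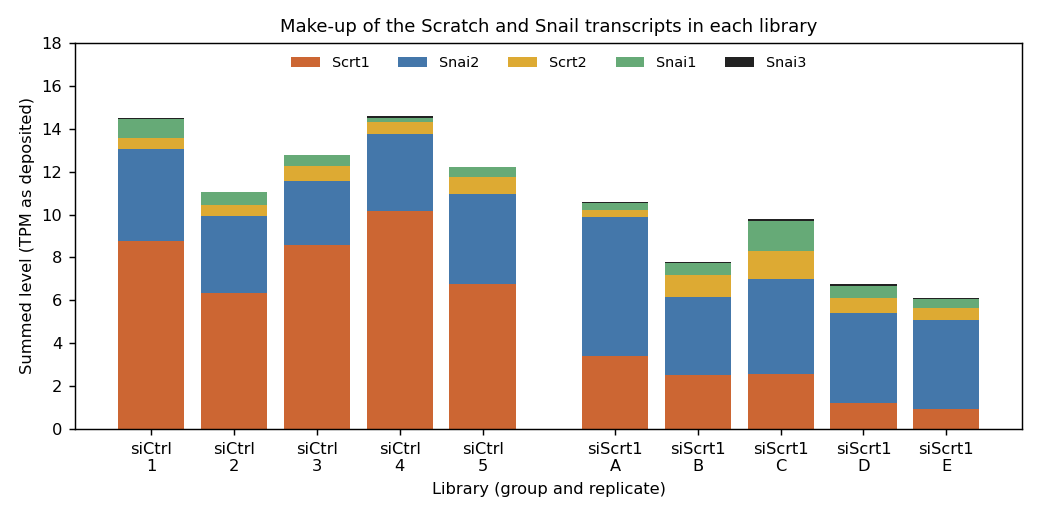
Stacked level of the 5 members in each library (y axis, summed TPM as deposited), with siCtrl on the left and siScrt1 on the right. The Scrt1 segment shrinks from 62.1% to 24.9% of the sum on average, and the summed height falls from 13.0 to 8.21 TPM, while the Snai2 segment keeps a similar height outside siScrt1 replicate A.

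The relatives together gained less than Scrt1 lost. The summed level of Scrt2, Snai1, Snai2 and Snai3 was 5.70, 4.71, 4.19, 4.39 and 5.45 TPM in siCtrl replicates 1 to 5. Across siScrt1 A to E it was 7.17, 5.25, 7.21, 5.50 and 5.21 TPM. Replicates A and C stood above every siCtrl library and the other 3 lay in the siCtrl range. The means of 4.89 ± 0.659 and 6.07 ± 1.03 TPM (SD, n = 5 each) differed by 1.18 TPM (95% interval -0.204 to 2.74; exact permutation p = 0.0714). Set against the 5.99 TPM that Scrt1 lost, the mean difference was 19.7% of the loss and the upper end of its interval 45.7%. Snai2 accounted for 71.5% of the mean difference. The sum of all 5 members fell from 13.0 ± 1.51 to 8.21 ± 1.92 TPM (SD, n = 5 each; exact permutation p = 0.00794, and 0.0625 within pairs). For the 4 relatives, exact permutation within pairs gave p = 0.125, and exact permutation of their summed CPM gave p = 0.119. With 1 library left out, the exact permutation p of their summed TPM ran from 0.0476 to 0.143. It was under 0.05 only without siCtrl replicate 1.

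The partners through which the family acts were for the most part not called. Lists of corepressors, other SNAG factors, E-box factors, regulators of family proteins and epithelial junction and related genes held 63 tested genes. Of these, 1 was called (1.59%, against 1.05% of all genes). Their log2 changes were positive in 36 (57.1%), against 51.0% of all genes tested, with a median of 0.03 against 0.00. At an unadjusted p under 0.05 stood 9 of them (14.3%, against 11.1% of all genes). The lists were drawn up from textbook roles with earlier results of these data known.

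Of the corepressors, 18 entries were tested (Rcor1 has 2 gene IDs), none was called, and 3 had an unadjusted p under 0.05. They included 1 of the 2 entries of Rcor1, the CoREST gene (ENSRNOG00000049783, 5.86 TPM in siCtrl), with a log2 change of -0.22 (limma adjusted p = 0.293). The other Rcor1 entry (ENSRNOG00000008067, 10.2 TPM in siCtrl) had -0.04 (limma adjusted p = 0.932). The C-terminal binding protein gene Ctbp2 had 0.25 (limma adjusted p = 0.379) and the histone deacetylase scaffold Sin3a had 0.14 (limma adjusted p = 0.442). Kdm1a, the demethylase that SNAG motifs bind, had a log2 change of -0.02 at 25.3 TPM in siCtrl and 24.8 TPM in siScrt1.

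Other factors with a SNAG motif could be tested for 3 genes, Insm2, Ovol2 and Ovol1, with log2 changes of 0.36, 0.22 and 0.21 and none called (limma adjusted p = 0.402, 0.534 and 0.550). Gfi1 and Gfi1b, the blood cell members of this class, had 1 read each over all libraries. Of the E-box factors 10 were tested and none was called. Those with the smallest p were Tcf3, Id3 and Bhlha15, with log2 changes of 0.17, 0.18 and 0.08. Neurod1, an activator of insulin genes that binds E-boxes, stood at 165 and 166 TPM with a log2 change of 0.01. Twist2 had no read, Twist1 had 12 in all, and Zeb1 stood at 3.46 and 3.72 TPM, near the level of Snai2.

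Of the regulators of family members 15 were tested and none was called. The kinases and ubiquitin ligases that act on Snail proteins gave Csnk1e at a log2 change of 0.29 (limma adjusted p = 0.399) and Fbxw11 at -0.13 (limma adjusted p = 0.436). The phosphatase gene Ctdsp1, whose product stabilises Snail, had 0.14 (limma adjusted p = 0.511). Rest, the repressor of neuronal genes in non-neuronal cells, had 17 reads over the 10 libraries, which came to 0.0239 TPM in siCtrl and 0.0353 TPM in siScrt1.

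The junction list also held related genes such as Krt8, Esrp1 and Vdr. Of its 17 tested genes, Epcam alone was called, and it fell. Epcam, an epithelial adhesion molecule, stood at 133, 158, 142, 154 and 136 CPM in siCtrl replicates 1 to 5. Under siScrt1 the libraries A to E stood at 103, 112, 99.4, 99.0 and 81.4 CPM. The groups did not overlap, and the log2 change was -0.52 (SE 0.0844; limma adjusted p = 0.00964). Esrp2, an epithelial splicing factor, had a log2 change of 0.22 (limma adjusted p = 0.187), and the claudin gene Cldn4 had 0.41 (limma adjusted p = 0.373). E-cadherin (Cdh1), the classical Snail target, stood at 62.6 and 66.9 TPM with a log2 change of 0.10 (limma adjusted p = 0.683).

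**Figure D3:**
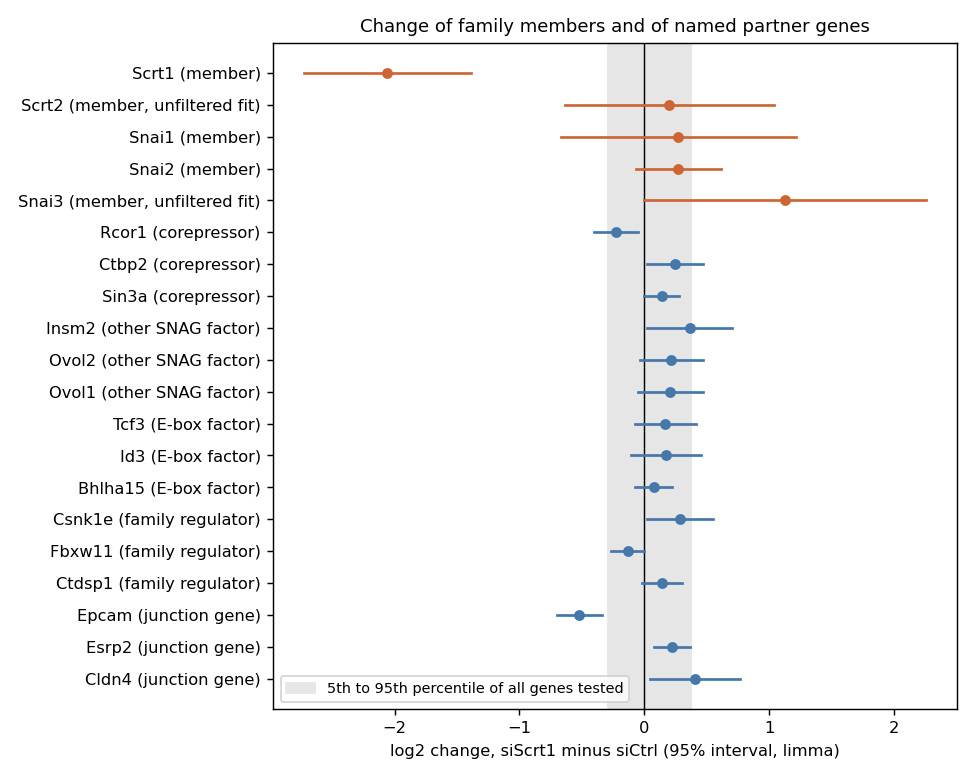
Log2 change of siScrt1 against siCtrl (x axis, limma, with 95% intervals) for the 5 members and for the named genes of the 5 partner lists, n = 5 libraries a group. The grey band spans the 5th to 95th percentile of all genes tested (-0.29 to 0.38), and Scrt1 at -2.06 and Epcam at -0.52 lie below it with their intervals, while the interval of each other gene reaches into the band.

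Over the 10 libraries, the genes whose log2 level was most like that of Scrt1 were Srp68 (r = 0.977), Acsl5 (r = 0.974) and Epcam (r = 0.965), out of 10124 genes that averaged 5 CPM or more. The groups lie apart, so these values mainly rank genes by how cleanly they separate the groups. After the group means were removed the values were 0.913, 0.871 and 0.823. The libraries share their depth and scaling in such a comparison. Srp68, a subunit of the signal recognition particle, stood at 146, 143, 129, 145 and 143 CPM in siCtrl replicates 1 to 5. Its siScrt1 levels, A to E, were 81.1, 65.4, 71.8, 57.2 and 52.9 CPM. Its lowest levels were in replicates D and E, where Scrt1 was also lowest, and the log2 change was -1.08 (SE 0.114; limma adjusted p = 0.000912).

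The genes most opposed to Scrt1 were Fyco1 (r = -0.957), Ifih1 (r = -0.954) and RGD1562747 (r = -0.947), and -0.773, -0.763 and -0.793 after the group means were removed. Fyco1, an adaptor for the transport of vesicles along microtubules, stood at 55.4, 57.6, 55.6, 58.9 and 60.2 CPM in siCtrl replicates 1 to 5. The siScrt1 libraries stood at 67.0, 74.2, 70.0, 86.8 and 82.8 CPM (A to E). Every siScrt1 library was above every siCtrl library, with D and E the highest, and the log2 change was 0.43 (SE 0.0655; limma adjusted p = 0.00651). Ifih1, a sensor of double-stranded RNA, went from 7.85 ± 1.92 to 16.2 ± 3.16 CPM (SD, n = 5 each; limma adjusted p = 0.00528). RGD1562747 was not called, with a log2 change of 0.24 (limma adjusted p = 0.224), and its groups overlapped in CPM. Of the other members, Snai2 and Snai1 could be compared in this way. Their r with Scrt1 was -0.31 and -0.18, inside the range from -0.607 to 0.669 that held the middle 90% of genes. After the group means were removed, r was 0.339 for Snai2 and 0.00888 for Snai1. Both lay inside the middle 90% for such values (-0.681 to 0.664).

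**Figure D4:**
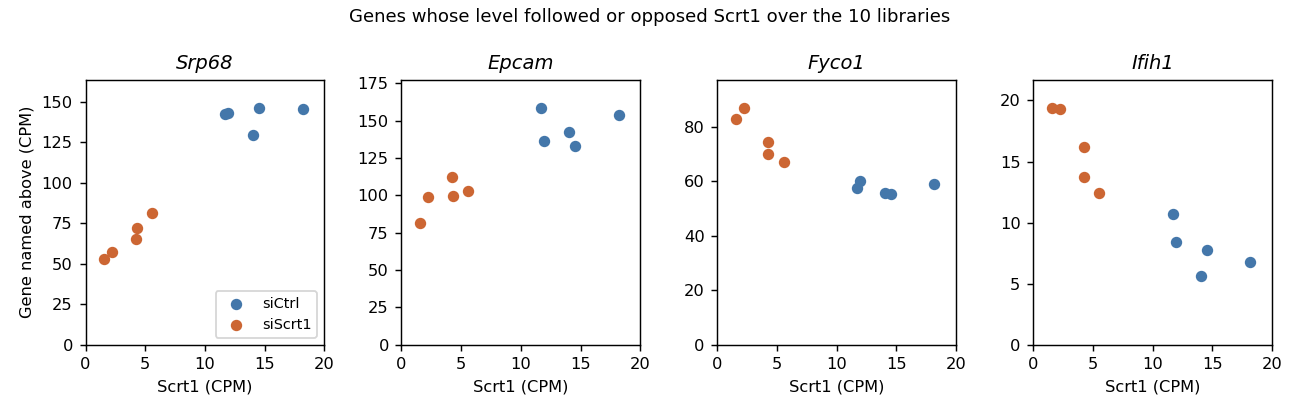
Level of Srp68, Epcam, Fyco1 and Ifih1 (y axes, CPM) against Scrt1 (x axes, CPM) in the 10 libraries, 1 point per library. These genes were picked for their r with Scrt1 over the same libraries. Within siScrt1 the points with the least Scrt1 (replicates D and E, 2.24 and 1.57 CPM) have the lowest Srp68 (57.2 and 52.9 CPM) and the highest Fyco1 (86.8 and 82.8 CPM).

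Since SCRT1 is a repressor, the promoters of genes were also searched for its site. RefSeq windows of 250 bases before and 50 bases after the start (GRCr8) were matched by symbol, with older symbols included, for 9677 of 12900 tested symbols (75.0%, so shares describe these genes and not all genes tested). The search used the core CAACAGGTG, which reads CACCTGTTG on the other strand. It also used the E-box within that core, CAGGTG. A box on the opposite strand was counted as well and reads CACCTG. Of all 27457 windows, 18.7% held the E-box and 60 (0.219%) the core. A match is a description of letters and not a measured binding site.

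The core lay in the window of 17 tested genes, and limma called 4 of these raised (23.5%, against 0.411% of all 9721 tested genes with a window). It called 0 of them lowered, against 0.669% of all genes with a window, a share too small for 0 of 17 to differ from it. At an unadjusted p under 0.05 stood 8 of the 17 (47.1%, against 11.2% of genes with a window), 6 of them higher and 2 (Chchd3 and Twsg1) lower in siScrt1. Their median log2 change was 0.20 against 0.00, and 13 of 17 were positive (76.5%, against 50.6%). The 4 raised genes were Parp16, Nfatc2, Gyg1 and Fyco1, the last of which was also the gene most opposed to Scrt1. Leaving out 1 library at a time kept 2 to 4 of these calls, with 2 left without siCtrl replicate 4 or siScrt1 replicate D or E.

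The 24 bases around the core are shown for the 4 raised genes, followed by Gtpbp2 and Twsg1, which hold the same core and were not raised. Capitals mark the core, read along the strand of the gene. The windows lie upstream of the RefSeq start on GRCr8, with the E-box beginning 239 (Parp16), 95 (Nfatc2), 197 (Gyg1), 57 (Fyco1), 158 (Gtpbp2) and 149 bases (Twsg1) before it. Their positions are chr8:74626537-74626560 (plus strand), chr3:177733055-177733078 (minus), chr2:104582960-104582983 (minus), chr8:132356494-132356517 (minus), chr9:22319713-22319736 (minus) and chr9:113014450-113014473 (minus), in that order.
Parp16: cttattCAACAGGTGgtaattccc
Nfatc2: gggctgCAACAGGTGctttgagca
Gyg1: agtcccCAACAGGTGtcccctggg
Fyco1: gtgggttgtCACCTGTTGctgagg
Gtpbp2: ccccgaagcCACCTGTTGctctcg
Twsg1: gcggccCAACAGGTGgcagcagtc

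Parp16, an enzyme of the endoplasmic reticulum that attaches ADP-ribose, had the largest rise of the 17. It had 11, 11, 9, 6 and 8 reads in siCtrl 1 to 5, against 24, 38, 27, 51 and 37 reads in siScrt1 A to E. The groups did not overlap and replicate D was the highest, and the log2 change was 1.88 (SE 0.259; limma adjusted p = 0.00475). Nfatc2, a transcription factor controlled by calcineurin, stood at 4.26, 2.47, 4.19, 4.87 and 6.42 CPM in siCtrl and at 7.73, 8.14, 8.64, 10.4 and 9.59 CPM in siScrt1. It did not overlap between groups either, with a log2 change of 1.09 (SE 0.213; limma adjusted p = 0.0293), and its call was lost when any of 6 libraries (siCtrl 3 and 4, siScrt1 B to E) was left out (limma adjusted p = 0.0564 to 0.0953). Gyg1, the primer of glycogen synthesis, went from 26.6 ± 3.10 to 35.5 ± 3.55 CPM (SD, n = 5 each), with a log2 change of 0.45 (limma adjusted p = 0.0194). Its call was lost when libraries were scaled by their totals (limma adjusted p = 0.0825), in limma-voom, and without siCtrl replicate 4 or siScrt1 replicates D or E. Chrnb1, a muscle-type acetylcholine receptor subunit, had 0.75 (limma adjusted p = 0.252), and Twsg1, a modulator of BMP signals, had the lowest value of the 17 at -0.22 (limma adjusted p = 0.110).

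**Figure D5:**
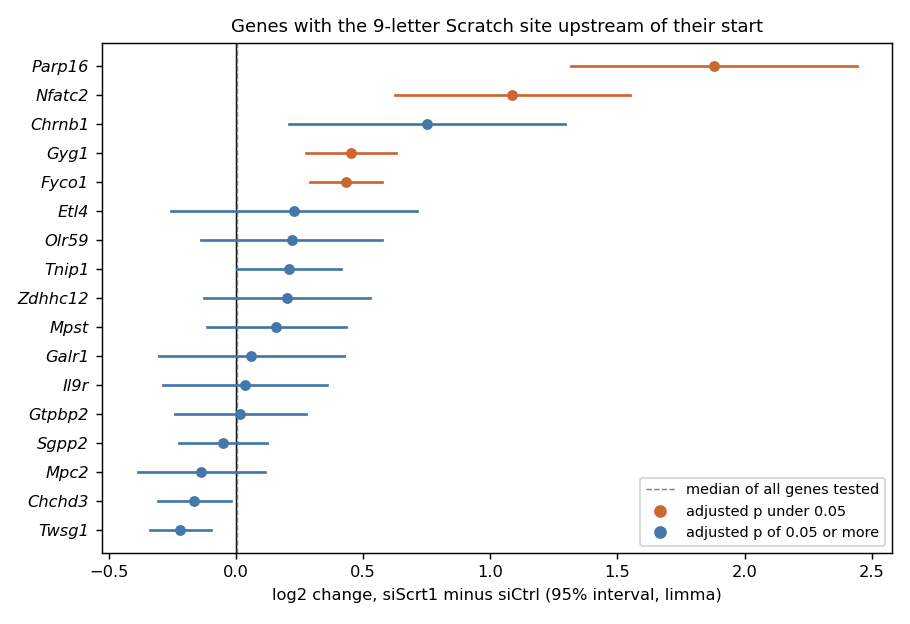
Log2 change of siScrt1 against siCtrl (x axis, limma, with 95% intervals) for the 17 tested genes with the core upstream of their start, n = 5 libraries a group. The 4 called genes, Parp16 (1.88), Nfatc2 (1.09), Gyg1 (0.45) and Fyco1 (0.43), lie right of 0, and 13 of 17 points are above 0.

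The shorter E-box was then read from the sequence side, among tested genes with a window. Of 1770 genes with the box, 18 were raised (1.02%) and 12 lowered (0.678%). Of the 7951 genes without one, 22 were raised (0.277%) and 53 lowered (0.667%). The median log2 change was 0.01 with the box and 0.00 without it. Read by list, windows were found for 40 of the 48 raised genes, and 18 of them held the box (45.0%), against 18.7% of all windows in the table. None of the 19 corepressor genes with a window held it. In the junction list 10 of 13 windows held it (76.9%), and among the lowered genes 12 of 65 (18.5%). Those windows covered 13 of 20 and 65 of 88 genes, under 80%, so as checks of their lists both are void. In Epcam, which fell, the window held 1 E-box without the longer core.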

How the data were processed

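Total RNA of FACS-sorted rat beta-cells was sequenced by the authors as single-end reads, in 5 siCtrl and 5 siScrt1 libraries grouped by their genotype label. The authors assigned reads to the Rnor6 transcriptome with kallisto (FastQC and Trimmomatic are also named in the submitters' processing notes, versions not given in the sources used here) and scaled the deposited estimated counts and TPM values between libraries with sleuth. The deposited values are therefore a scaled signal and not counts. Low values were multiples of a step of 0.842 to 1.26 scaled counts, the worth of 1 read. Division by that step gave recovered reads and CPM, and 50.3% of values above 0 came out whole (within 0.01 reads). The count test planned for unscaled counts was not run for that reason. TPM sums ran from 821278 to 1153952, so TPM levels of the groups carry the authors' scaling. Rows without values (9363) were left out.

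The fit across all genes used limma 3.58.1 in R 4.3.3 (lmFit, eBayes with trend) on log2(scaled count + 0.5) of the gene sums, with group as the sole term, after a filter (the CPM of 10 reads at median depth in at least 5 libraries, and 15 reads in total) that kept 12941 of 23918 genes. This scale understates changes of genes with few reads. Adjusted p-values are Benjamini-Hochberg over all genes tested. Single values were compared by exact two-sided permutation (scipy 1.17.1, Python 3.11.15), with intervals of shifts that this test does not reject, and pooled reads by an exact ratio interval at 95%. The fit was tested on simulated data.

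The table numbers the libraries 1 to 5 in each group, which the sample labels do not, so siScrt1 replicates A to E correspond to numbers 1 to 5. Same-numbered libraries deviated together from their group means (r = 0.351, 0.131, 0.231, 0.199 and 0.234). However, siScrt1 replicate B, numbered 2, had its highest r with a siCtrl library of another number. The number was taken as a pairing. With it as a replicate block the calls rose from 136 to 259 genes (2.00%).

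Named genes were the 5 members, every called gene of the partner lists or the 3 with the smallest p, and the 3 genes most like and most opposed to Scrt1 in log2 level. Kdm1a, Neurod1, Zeb1, Twist1, Twist2, Gfi1, Gfi1b, Rest and Cdh1 are named for their roles, outside this rule and after their values were seen. Members and lists were chosen with earlier results of these data known. The search for sites, and the genes named from it, were added after values were seen. Sequences are from RefSeq (GRCr8) and, for the consensus, from the study's motif table. A few listed genes were not analysed here.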

Additional observations from a re-analysis of the deposited data

Results flagged for a closer look

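In groups of 5 libraries, 7 of 72 tested sets of values had 1 library apart from the other 4 by Dixon's 95% criterion, and chance flags about 1 in 20 such groups, or 3.6 here. Snai1 in siScrt1 replicate C stood at 2.10 CPM, with the others from 0.504 to 0.924 CPM. The same library stood at 1.39 TPM for Snai1, against 0.338 to 0.561 TPM. Snai2 in siScrt1 replicate A stood at 6.46 TPM, against 3.64 to 4.42 TPM. In siCtrl replicate 3, Ovol1 was low at 8.95 CPM (others 11.9 to 12.7), Esrp2 was low at 27.1 CPM (29.8 to 30.8), and Srp68 was low at 129 CPM (143 to 146). Cldn4 in siScrt1 replicate B was high at 12.8 CPM, with the others from 7.84 to 8.82 CPM.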

How the results depend on the processing

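Scrt1 stayed called and lowered in all alternatives run, with a log2 change from -2.26 to -1.80 when 1 library was left out and from -2.23 to -1.59 otherwise. Epcam was the 1 partner gene called throughout. The replicate block gave 259 calls for 136, of which 132 were shared, and changed no call among the members and partner genes. Leaving out 1 library gave 62 to 133 calls (62 without siScrt1 replicate D, 64 without E, 87 without C and 83 without B, 77 without siCtrl replicate 5 and 82 without 4), with fewer samples in each fit. Without both libraries numbered 1, an alternative added after seeing the data, 110 were called. The core-bearing genes gave 2 to 4 calls without 1 library. The log2 ratio of Snai1 ran from -0.16 to 0.55 when 1 library was left out, Scrt2 from 0.05 to 0.50, and Snai2 from 0.11 to 0.32. Snai3 ran from 1.02 to 2.02, and its exact permutation p was 0.0476 without siCtrl replicate 4 or without siScrt1 replicate B. The 4 relatives together ran from 0.24 to 0.37. A limma value for the summed relatives, and the count tests, were not run. Of the genes run under the alternatives (those named by rule and the 4 raised ones with the core), Snai1 alone changed sign. Lost calls were those given for Gyg1 and Nfatc2, Nfatc2 also without both libraries numbered 1 (limma adjusted p = 0.0779), and Acsl5 without 8 of the 10 libraries, without both numbered 1 (limma adjusted p = 0.0797), without a filter and on the TPM scale. Kdm1a, Neurod1, Zeb1, Cdh1, Chrnb1, Twsg1, the correlations and the E-box shares were not recomputed. Scaling by library totals put the median of all genes at -0.03. Depth limits Scrt2, Snai1 and Snai3, with at most 14, 29 and 3 reads a library.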
